A study of Homo sapiens with 12 samples.

Results

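The RAB small GTPases were followed in HL-60 cells given all-trans retinoic acid (ATRA), a vitamin A derivative that binds nuclear retinoic acid receptors. Members were the gene symbols made of RAB, a number and at most 1 letter, which gave 61 members among the 26364 genes listed. Another 29 symbols that start with RAB, such as RABGAP1L, were not counted as members. HL-60 is an established line from a human promyelocytic leukemia, and ATRA drives it towards neutrophil-like cells. The 4 groups were cells of this line in the same serum-containing medium: 1 µM ATRA for 4 h, 2 d and 4 d, and cells at 0 h of ATRA, with 3 replicate libraries each. No untreated library kept in culture for 4 h, 2 d or 4 d was analysed here, so time in culture and ATRA cannot be told apart. The labels do not call the replicates separate cultures, so a p-value here reflects how far these libraries scatter, which may be technical.

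RAB proteins are molecular switches that sit on membranes when bound to GTP and return to the cytosol, bound to the carrier GDI, when GTP has been hydrolysed. Each marks its own set of membranes, such as Golgi, endosomes or secretory granules, and recruits effectors that move, tether or fuse vesicles. In neutrophils they are known for release of granules and for maturation of the phagosome, the compartment that encloses an ingested microbe.

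Reads assigned to genes numbered 7866757 to 13658177 per library, and the RAB members together held 0.262% to 0.412% of them. Levels are CPM, reads scaled to the gene reads of the library with TMM factors. Differences between times are log2 fold changes ± SE from 1 fit to all 12 libraries. A call is an adjusted p under 0.05 in edgeR's quasi-likelihood test, Benjamini-Hochberg adjusted over the 12671 genes tested. The 8 granulocytic markers summed to 31400 to 44700 CPM at 0 h and 40300 to 68200 CPM at 4 h. They summed to 31100 to 39300 CPM at 2 d and 12300 to 12700 CPM at 4 d. All libraries of 4 d lay below those of the other times. MPO, with 6950 to 50300 CPM over the 12 libraries, weighs most in this sum. CD33, with 68.1 to 126 CPM, and CEBPE, with 496 to 1200 CPM, hardly enter it. The hemoglobin genes HBA1 and HBA2 had no read, and the 4 T cell markers summed to 4.66 to 7.75 CPM at 4 d, against 0.637 to 1.07 CPM at 0 h, nearly all of it CD3E. The 3 fibroblast markers summed to 5.55 to 12.6 CPM at 4 d, against 0.368 to 1.82 CPM at 0 h, most of it COL1A1. Other lists went the other way. The 3 megakaryocytic markers summed to 4.57 to 6.25 CPM at 4 d, against 15.4 to 27.4 CPM at 0 h. The 4 B cell markers summed to 6.45 to 7.63 CPM at 4 d, against 9.94 to 17.2 CPM at 0 h. The erythroid and epithelial sums overlapped between 4 d and 0 h. In bulk RNA, more cells of a type and more RNA per cell cannot be told apart.

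Some libraries stood apart. In 0 h replicate 2, 4 h replicate 3 and 4 d replicate 1, the deviation of a member from its group mates followed the GC content of its transcript (Pearson r of 0.648, 0.67 and 0.669 over the 44 tested members, which share each library and are no independent replicates). It ran the other way in libraries of the same times, with r of -0.715 for 0 h replicate 1, -0.643 for 4 h replicate 1, and -0.646 and -0.534 for 4 d replicates 2 and 3, each deviation being taken from the other 2 libraries of its time. RAB11B, a recycling endosome member with 63.51% GC, lay above its group mates by 1.34, 0.98 and 1.04 on the log2 scale in these 3 libraries. RAB8B, a member with 36.21% GC that carries cargo to the cell surface, deviated by -0.98, -0.55 and -1.01. These 3 are called the GC-tilted libraries, and the part of the tilt in the results was not tested gene by gene. In a different way, 4 h replicate 1 held a read in 22265 genes, against 15198 to 15798 genes in the others.

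**Figure D1:**
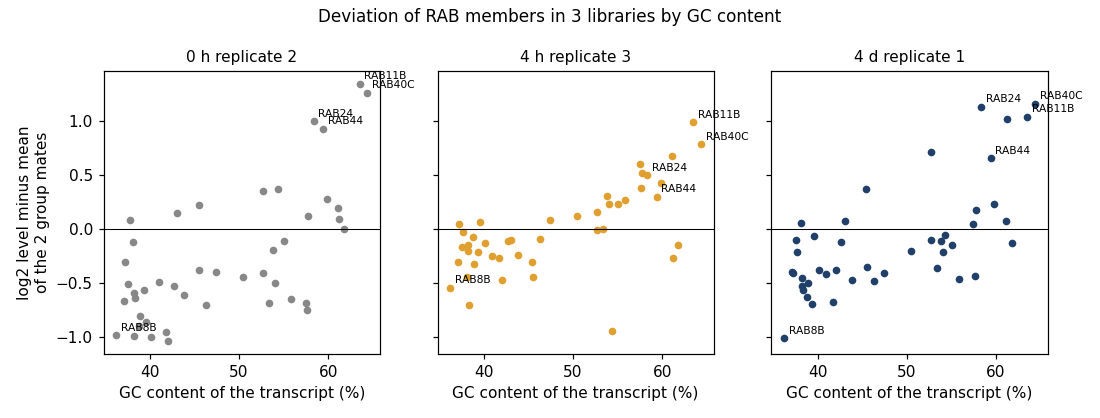
Deviation of each of the 44 tested RAB members in 3 libraries (y axis, log2 level minus the mean of the other replicates of its time) by GC content of its longest transcript (x axis, percent). In all 3 libraries the high-GC members RAB11B and RAB40C lie above 0 and the low-GC member RAB8B below it.

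The RAB family as a whole took up more of the transcriptome at the late times. The summed level of all members averaged 2878 ± 29.5 CPM at 0 h, 2787 ± 218 CPM at 4 h, 3481 ± 105 CPM at 2 d and 3816 ± 31.4 CPM at 4 d (SD, n = 3 each). The libraries of 4 d, from 3780 to 3838 CPM, all lay above those of 0 h, from 2852 to 2910 CPM. Members were grouped by role for this description. Most of the gain lay in the early endosome and phagosome members, which summed to 1144 ± 165 CPM at 4 d, against 497 ± 117 CPM at 0 h. Within this role most of it came from RAB31, with 540 ± 96.5 CPM at 4 d, against 84.2 ± 19.1 CPM at 0 h. RAB20 followed, with 143 ± 13.5 CPM at 4 d, against 27.4 ± 1.47 CPM at 0 h. RAB31 alone made up 11.36% to 15.88% of the RAB total at 4 d, against 2.14% to 3.42% at 0 h. The late endosome and lysosome members summed to 472 ± 25.4 CPM at 4 d, against 483 ± 25.3 CPM at 0 h, and the 2 groups of libraries overlapped.

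**Figure D2:**
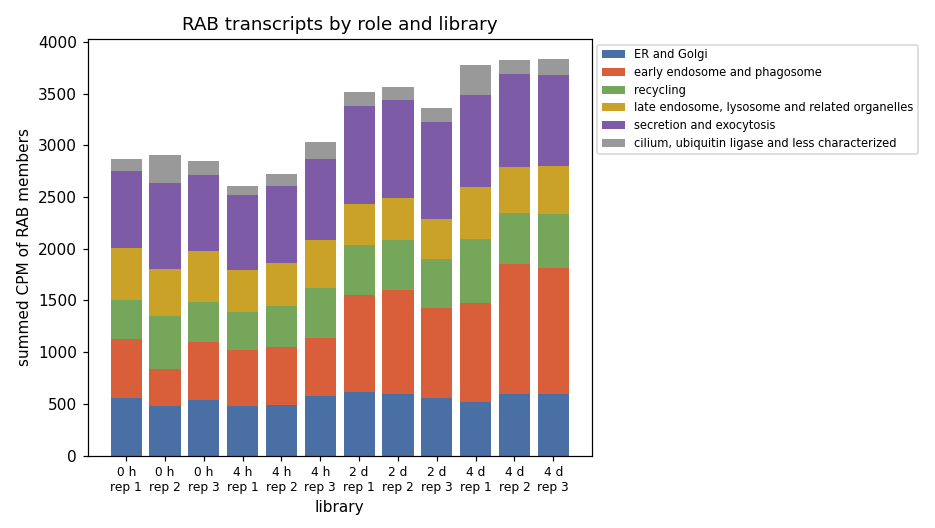
Summed level of the RAB members in each of the 12 libraries (y axis, CPM), stacked by role (colours), in order of time in ATRA. The early endosome and phagosome segment averages 497 CPM at 0 h, 555 CPM at 4 h, 936 CPM at 2 d and 1144 CPM at 4 d.

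Per kb of exon, the level of RAB1B, which acts between endoplasmic reticulum and Golgi, was the highest at 4 d and at 0 h (142 ± 7.37 and 149 ± 12.5 CPM per kb). At 0 h it was followed by RAB7A with 131 ± 19.7 CPM per kb, RAB5C with 97.6 ± 23.4 and RAB11B with 94.1 ± 55.4, with SDs that overlap between neighbours, although RAB7A lay above RAB5C in each 0 h library. At 4 d the second place was held by RAB31 with a level of 133 ± 23.8 CPM per kb, against 20.8 ± 4.72 CPM per kb at 0 h; at 4 d its SD overlapped with that of RAB1B. RAB5C, RAB11B and RAB7A followed at 4 d with 128 ± 22.4, 118 ± 53.2 and 112 ± 17.2 CPM per kb, with overlapping SDs, although RAB5C lay above RAB7A in each 4 d library. RAB20 reached 93.9 ± 8.9 CPM per kb at 4 d, against 18.1 ± 0.97 CPM per kb at 0 h.

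**Figure D3:**
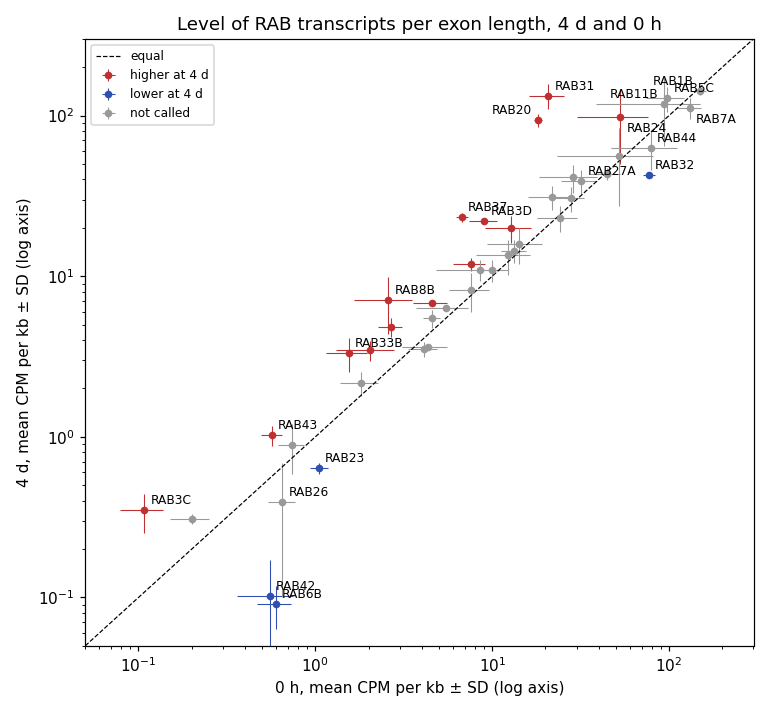
Mean level of each tested RAB member at 4 d (y axis) and at 0 h (x axis), in CPM per kb of exon on log axes, with bars of 1 SD (n = 3) and a dashed line of equal levels. RAB31 and RAB20 lie far above the line at 133 and 93.9 CPM per kb at 4 d, and RAB6B and RAB42 lie farthest below it.

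Among the 44 members with enough reads to test, 3 were called at 4 h against 0 h (1 higher and 2 lower), beside 6.23% of all genes tested (2.00% higher and 4.23% lower). At 2 d against 0 h, 13 members were called (9 higher and 4 lower, 29.5%), beside 35.6% of all genes (16.9% higher and 18.7% lower). At 4 d against 0 h, 18 members were called (14 higher and 4 lower, 40.9%), beside 57.8% of all genes. The share of members called was close to that of all genes at 4 h and below it at 2 d and 4 d, while without a filter on low counts both shares were close (20.3% of members and 20.4% of genes at 2 d, 32.2% and 32.6% at 4 d). Of higher calls alone, 14 of 44 members at 4 d stand beside 28.1% of all genes, and of lower calls 4 of 44 beside 29.7%. The median log2 fold change of the tested members was 0.01 at 4 h, 0.20 at 2 d and 0.26 at 4 d, and that of all tested genes was 0.00, -0.02 and 0 at these times. With a fold of at least 2 asked as well, 0 members were higher and 2 lower at 4 h (1.03% and 2.88% of all genes), 4 and 2 at 2 d (8.22% and 8.52%), and 7 and 2 at 4 d (17.6% each). An F-test over the 4 times called 19 of 44 members, beside 63.2% of all genes. The 3 comparisons share the 0 h libraries and are not independent.

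The calls at 4 d were the most stable. Without each library in turn, 14 of the 18 were called every time, and 13 were called under every alternative that tested them, a stricter threshold on p or fold apart: RAB3C, RAB3D, RAB6B, RAB8B, RAB18, RAB20, RAB28, RAB29, RAB31, RAB32, RAB33B, RAB37 and RAB42. At 2 d the same held for 6 of 13, namely RAB3A, RAB3D, RAB6B, RAB20, RAB31 and RAB37, and at 4 h for none of 3. Without the 3 GC-tilted libraries the calls came to 18 higher and 5 lower at 4 d (68.1% of all genes called), 12 higher and 6 lower at 2 d (52.8%) and 1 higher and 9 lower at 4 h (24.9%).

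**Figure D4:**
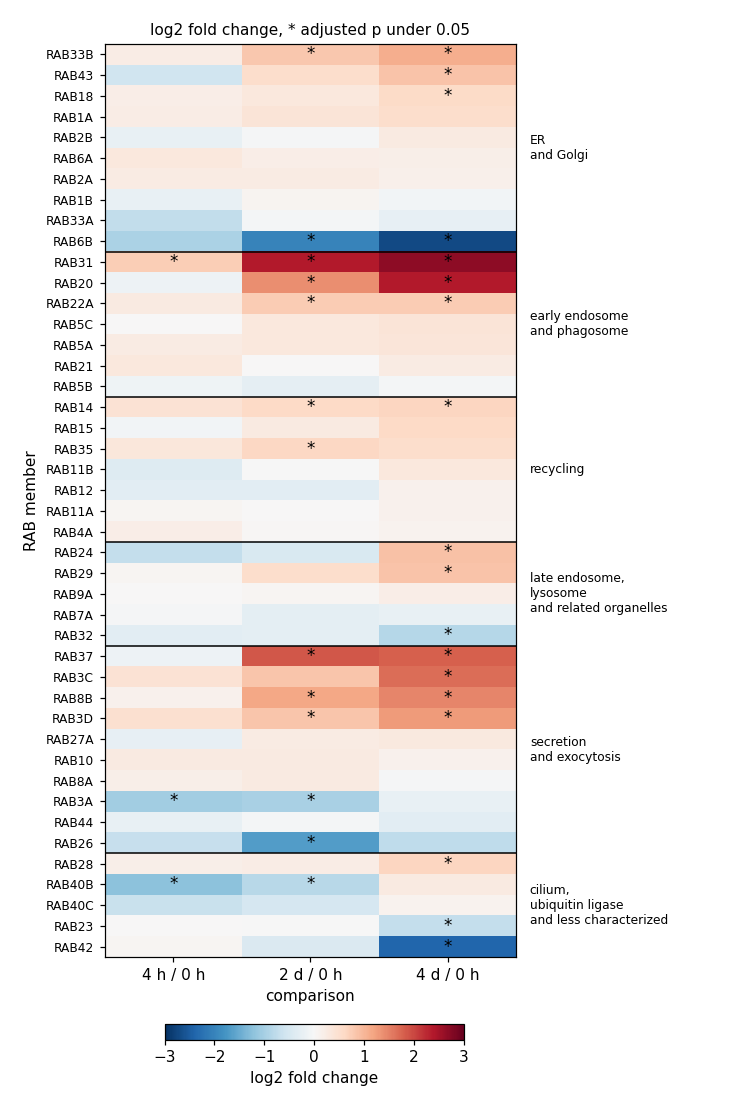
log2 fold change of the 44 tested RAB members (rows, by role) at 4 h, 2 d and 4 d against 0 h (columns), from -2.70 (RAB6B at 4 d, dark blue) to 2.68 (RAB31 at 4 d, dark red). Asterisks mark an adjusted p under 0.05 in edgeR's quasi-likelihood test.

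The stretches around 4 transcription starts are shown so that the letters at members that moved together can be read beside their values, for 3 that rose at 4 d (RAB31, RAB3D and RAB8B) and for RAB32, which fell. The windows run from 250 bases before to 50 after the start in RefSeq (GRCh38.p14) and lie at chr18:9708051-9708350 (plus strand, RAB31), chr19:11339608-11339907 (minus, RAB3D), chr15:63189356-63189655 (plus, RAB8B) and chr6:146543583-146543882 (plus, RAB32). Capitals mark the GC box GGGCGG, the PU.1 and ETS core GAGGAA and the E box CACGTG on either strand, each written 5′ to 3′ along the gene.
RAB31: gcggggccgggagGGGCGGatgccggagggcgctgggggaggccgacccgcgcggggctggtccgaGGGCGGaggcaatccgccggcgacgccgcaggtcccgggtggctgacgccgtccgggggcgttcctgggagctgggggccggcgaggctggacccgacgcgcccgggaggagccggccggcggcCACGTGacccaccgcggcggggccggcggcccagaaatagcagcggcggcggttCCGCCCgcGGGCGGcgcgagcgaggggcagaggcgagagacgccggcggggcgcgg
RAB3D: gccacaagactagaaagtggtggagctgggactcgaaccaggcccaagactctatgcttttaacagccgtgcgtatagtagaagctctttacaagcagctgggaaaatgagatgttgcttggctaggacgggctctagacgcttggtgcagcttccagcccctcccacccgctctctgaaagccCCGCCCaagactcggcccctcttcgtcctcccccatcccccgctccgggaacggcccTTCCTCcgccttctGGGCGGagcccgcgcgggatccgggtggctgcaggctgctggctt
RAB8B: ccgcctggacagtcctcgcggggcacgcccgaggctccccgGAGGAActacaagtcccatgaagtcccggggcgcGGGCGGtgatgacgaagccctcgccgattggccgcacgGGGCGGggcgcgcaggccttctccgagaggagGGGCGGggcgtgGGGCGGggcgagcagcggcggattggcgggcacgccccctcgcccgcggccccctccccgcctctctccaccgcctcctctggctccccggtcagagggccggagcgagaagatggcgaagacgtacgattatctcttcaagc
RAB32: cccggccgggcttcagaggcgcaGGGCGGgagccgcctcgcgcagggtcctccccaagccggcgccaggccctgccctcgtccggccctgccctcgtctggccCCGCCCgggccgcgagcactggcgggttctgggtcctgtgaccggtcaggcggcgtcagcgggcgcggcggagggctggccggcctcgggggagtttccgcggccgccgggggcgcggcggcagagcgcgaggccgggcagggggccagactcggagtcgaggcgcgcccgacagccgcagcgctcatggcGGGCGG

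These windows are rich in GC and CpG, with 82.7% GC and 52 CpG for RAB31, 62.0% and 18 for RAB3D, 73.3% and 38 for RAB8B and 81.0% and 45 for RAB32. RefSeq windows were matched for 48 members, 68 windows in all, with a median of 23.5 CpG, against 14 in the 35116 windows of the table. The GC box stood in 51 of the 68 member windows (75.0%), against 44.95% of all windows. The retinoic acid receptor core AGGTCA stood in 7 member windows (10.29%, in RAB17, RAB22A, RAB24, RAB27A, RAB29, RAB40A and RAB6C), against 13.83% of all windows. Its direct repeats with a gap of 2 or 5 bases were in no member window. They stood in only 1 and 2 of all 35116 windows, too few for their absence to tell anything about the members. GAGGAA stood in 18 member windows (26.47%), against 27.85% of all windows. Both strands were searched, and a match describes letters and not a bound site.

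Among the early endosome and phagosome members, RAB31, RAB20 and RAB22A rose at 4 d against 0 h, and RAB5A, RAB5B, RAB5C and RAB21 were not called. RAB31 directs traffic between the trans-Golgi network and endosomes and is found on phagosomes of macrophages. Its level was 92.7, 62.3 and 97.6 CPM at 0 h, 147, 147 and 125 CPM at 4 h, 448, 467 and 400 CPM at 2 d and 429, 608 and 582 CPM at 4 d. Every library of a treated time lay above every library of 0 h, and those of 2 d and 4 d overlapped. RAB31 rose by 2.68 ± 0.21 at 4 d against 0 h on the log2 scale, a 6.41-fold difference (edgeR adjusted p = 2.32e-07), and by 2.38 ± 0.20 at 2 d (adjusted p = 2.17e-06). It was the one member called higher at 4 h, by 0.73 ± 0.20 (edgeR adjusted p = 0.0445). That call was lost without any 1 of 8 libraries: 0 h replicates 1 and 2, 4 h replicates 1 and 2, the 3 of 2 d and 4 d replicate 3. It was also lost with library totals (0.0825) and in the 6-library fit (0.118). The largest adjusted p was 0.17, at a log2 fold change of 0.69 without 4 h replicate 2, and alternatives gave 0.0015 to 0.17.

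RAB20, which promotes acidification and maturation of phagosomes in macrophages, rose later. Its level was 26.1, 29 and 27.2 CPM at 0 h, 20.7, 22.3 and 31.0 CPM at 4 h, 68.0, 75.1 and 72.1 CPM at 2 d and 154, 128 and 146 CPM at 4 d. The libraries of 2 d lay above all of 0 h and 4 h, and those of 4 d above all others. RAB20 rose by 2.38 ± 0.17 on the log2 scale at 4 d against 0 h (adjusted p = 1.07e-07, edgeR) and by 1.39 ± 0.17 at 2 d against 0 h (adjusted p = 3.43e-05). RAB20 also rose in both late steps, by 1.54 ± 0.17 at 2 d against 4 h and by 0.99 ± 0.16 at 4 d against 2 d.

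RAB22A, the closest relative of RAB31 and a regulator of early and recycling endosomes, had 24.9, 33.2 and 31.9 CPM at 4 d, against 20.6, 10.5 and 22.1 CPM at 0 h. The 4 d libraries lay above those of 0 h, with replicate 2 of 0 h well below its mates. The log2 fold change was 0.76 ± 0.23 at 4 d (edgeR adjusted p = 0.0113) and 0.75 ± 0.23 at 2 d (adjusted p = 0.0209), and without 0 h replicate 2 it was 0.49 and 0.48. The 4 d call was lost in a fit to the 6 libraries compared (0.76, adjusted p = 0.0508, range over alternatives 0.00032 to 0.0508). The 2 d call was lost without 2 d replicate 1 or 2 (adjusted p = 0.055 and 0.0592, range over alternatives 0.00228 to 0.0592). RAB22A made up 5.18% to 5.49% of the reads of the RAB22A and RAB31 pair at 4 d, against 14.38% to 18.47% at 0 h.

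RAB5A, RAB5B and RAB5C, which fuse early endosomes, were not called at 4 d against 0 h. RAB5A had 23.1, 30.9 and 29.3 CPM at 4 d, against 31.4, 12.4 and 21.2 CPM at 0 h, a log2 fold change of 0.36 ± 0.28. RAB5B had 98.4, 143 and 133 CPM at 4 d, against 151, 92.3 and 149 CPM at 0 h (-0.07 ± 0.20). RAB5C had 197, 276 and 265 CPM at 4 d, against 218, 136 and 207 CPM at 0 h (0.40 ± 0.20). The groups of all 3 overlapped, and their edgeR adjusted p-values ran from 0.109 to 0.779. RAB5C was called at 4 d without the 3 GC-tilted libraries (0.35, adjusted p = 0.0195), when 4 h replicate 1 was left out in place of 4 h replicate 3 (0.35, adjusted p = 0.0481) and without 4 d replicate 1 alone (0.53, adjusted p = 0.0379), and its alternatives spanned 0.0195 to 0.308. RAB5A was called higher at 4 d with GC and length offsets (0.57, adjusted p = 0.0248) and without 0 h replicate 1 (0.72, adjusted p = 0.0334), over a range of 0.0248 to 0.795. RAB5B was called lower at 2 d against 0 h without the GC-tilted libraries (-0.47, adjusted p = 0.00107), without 0 h replicate 2 (-0.46, adjusted p = 0.0426) and with offsets (-0.40, adjusted p = 0.0285), while -0.26 with all libraries was not (range over alternatives 0.00107 to 0.643).

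Among the secretion and exocytosis members, RAB37, RAB3C, RAB8B and RAB3D rose at 4 d against 0 h and none was called lower with all libraries. RAB37, a member on secretory granules of mast cells, had 33.1, 28.7 and 29 CPM at 0 h, 24.6, 26.6 and 30.2 CPM at 4 h, 108, 116 and 105 CPM at 2 d and 97.8, 105 and 112 CPM at 4 d. The 2 late times overlapped with each other and lay above both early times in every library. RAB37 rose by 1.79 ± 0.14 at 4 d against 0 h (adjusted p = 2.34e-07, edgeR), by 1.86 ± 0.14 at 2 d against 0 h and by 2.02 ± 0.14 at 2 d against 4 h. Its gain was thus complete at 2 d.

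RAB3D, a granule member of exocrine and mast cells, climbed in smaller steps. It had 47.2, 32.7 and 39.9 CPM at 0 h, 50.9, 55.8 and 59.6 CPM at 4 h, 72.8, 72.1 and 67.1 CPM at 2 d and 92.6, 99.3 and 99.6 CPM at 4 d. No library of one time overlapped with those of another. The log2 fold change was 1.28 ± 0.15 at 4 d against 0 h (adjusted p = 9.48e-06, edgeR) and 0.82 ± 0.15 at 2 d (adjusted p = 0.000967), and 0.47 at 4 h was not called (adjusted p = 0.0799). RAB3D was called higher at 4 h with DESeq2, with GC and length offsets and without 0 h replicate 1. The step at 4 d against 2 d was 0.46 ± 0.15 (adjusted p = 0.0355), and it was lost without any 1 of 7 libraries: 0 h replicate 3, 4 h replicate 2, any of the 3 of 2 d, and 4 d replicates 2 and 3. Its largest adjusted p was 0.12 without a single library and 0.139 without a filter on low counts, and its range over alternatives was 0.000902 to 0.139.

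RAB8B, which carries cargo from the Golgi to the cell surface, had 16.5, 7.55 and 14.4 CPM at 0 h, 17.0, 14.4 and 10.6 CPM at 4 h, 28.9, 32.1 and 24.1 CPM at 2 d and 20.7, 47.9 and 37.0 CPM at 4 d. The 4 d libraries all lay above those of 0 h, but the GC-tilted 4 d replicate 1 had less than 2 d. RAB8B rose by 1.46 ± 0.32 at 4 d (edgeR adjusted p = 0.0015) and by 1.15 ± 0.32 at 2 d (adjusted p = 0.0128), the 2 d call being lost without 2 d replicate 2 (1.05, adjusted p = 0.0506, range over alternatives 2.13e-06 to 0.0506). Its close relative RAB8A had 111, 130 and 127 CPM at 4 d, against 132, 97.8 and 145 CPM at 0 h, and was not called (-0.03 ± 0.16). RAB8B made up 15.71% to 26.86% of the reads of the pair at 4 d, against 7.17% to 11.07% at 0 h.

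RAB3C and RAB3A, known from synaptic vesicles, were rare and went different ways. RAB3C had 2.70, 4.06 and 2.53 CPM at 4 d, against 1.19, 1.00 and 0.682 CPM at 0 h, and rose by 1.67 ± 0.41 (edgeR adjusted p = 0.00316). RAB3A had 4.96, 7.10 and 6.72 CPM at 0 h, 2.56, 2.76 and 3.73 CPM at 4 h, 3.17, 3.03 and 3.32 CPM at 2 d and 6.03, 5.16 and 4.97 CPM at 4 d. Both middle times lay below 0 h in every library, and 4 d overlapped with 0 h. RAB3A fell by 1.05 ± 0.23 at 4 h against 0 h (edgeR adjusted p = 0.0161) and by 0.98 ± 0.23 at 2 d against 0 h (adjusted p = 0.00476), and rose by 0.76 ± 0.23 at 4 d against 2 d (adjusted p = 0.0261). The 4 h call was lost without 4 h replicate 1 or 2 (adjusted p = 0.0703 and 0.0917, range over alternatives 0.00197 to 0.0917). The late rise was lost without any 1 of the 2 d libraries or 4 d replicate 1 (0.0575 to 0.0885, range over alternatives 0.0168 to 0.0885).

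RAB27A, which docks secretory granules at the membrane and serves release of azurophil granules in neutrophils, had 140, 87.7 and 126 CPM at 0 h, 109, 100 and 90.3 CPM at 4 h, 135, 150 and 133 CPM at 2 d and 116, 163 and 154 CPM at 4 d. Its libraries of 4 d and 0 h overlapped, and the log2 fold change of 0.30 ± 0.19 at 4 d was not called (edgeR adjusted p = 0.2). With GC and length offsets RAB27A was called at 4 d (0.27, adjusted p = 0.0333, range over alternatives 0.0333 to 0.56) and lower at 4 h (-0.47, adjusted p = 0.0125), and without the GC-tilted libraries it was also lower at 4 h (-0.35, adjusted p = 0.0399). Its libraries of 2 d all lay above those of 4 h, but the step of 0.48 was not called (edgeR adjusted p = 0.0637). That step was called without the GC-tilted libraries (0.41) and with offsets (0.62). The call was also made when 4 h replicate 1 was left out in place of 4 h replicate 3. DESeq2 and the 6-library fit called the step too, as did dropping 4 d replicate 1 alone or 0 h replicate 2 alone. For RAB27A in this step, the range over alternatives was 0.000317 to 0.18. RAB27B, its close relative, had 6 reads over the 12 libraries, 5 of them in 4 h replicate 1. RAB44, an unusually long member with calcium-binding EF hands that is found in blood cells, had 355, 219 and 233 CPM at 4 d, against 247, 492 and 271 CPM at 0 h (-0.32 ± 0.26, not called, but called at -0.57 with GC and length offsets). The high values of RAB44 lay in GC-tilted libraries, 0 h replicate 2 and 4 d replicate 1. RAB10, which delivers vesicles to the plasma membrane, had 88.1, 125 and 110 CPM at 4 d, against 113, 77.4 and 105 CPM at 0 h, and was not called. RAB26, linked to maturation of secretory granules, had 0.257, 0.303 and 0.616 CPM at 2 d, against 1.38, 1.27 and 0.974 CPM at 0 h. It fell by 1.68 ± 0.54 at 2 d (edgeR adjusted p = 0.0274), a call lost without 0 h replicate 1 or 2 or 2 d replicate 1 or 2 (0.0566 to 0.111, range over alternatives 0.0116 to 0.111). At 4 d RAB26 had 1.35, 0.397 and 0.436 CPM and was not called against 0 h.

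**Figure D5:**
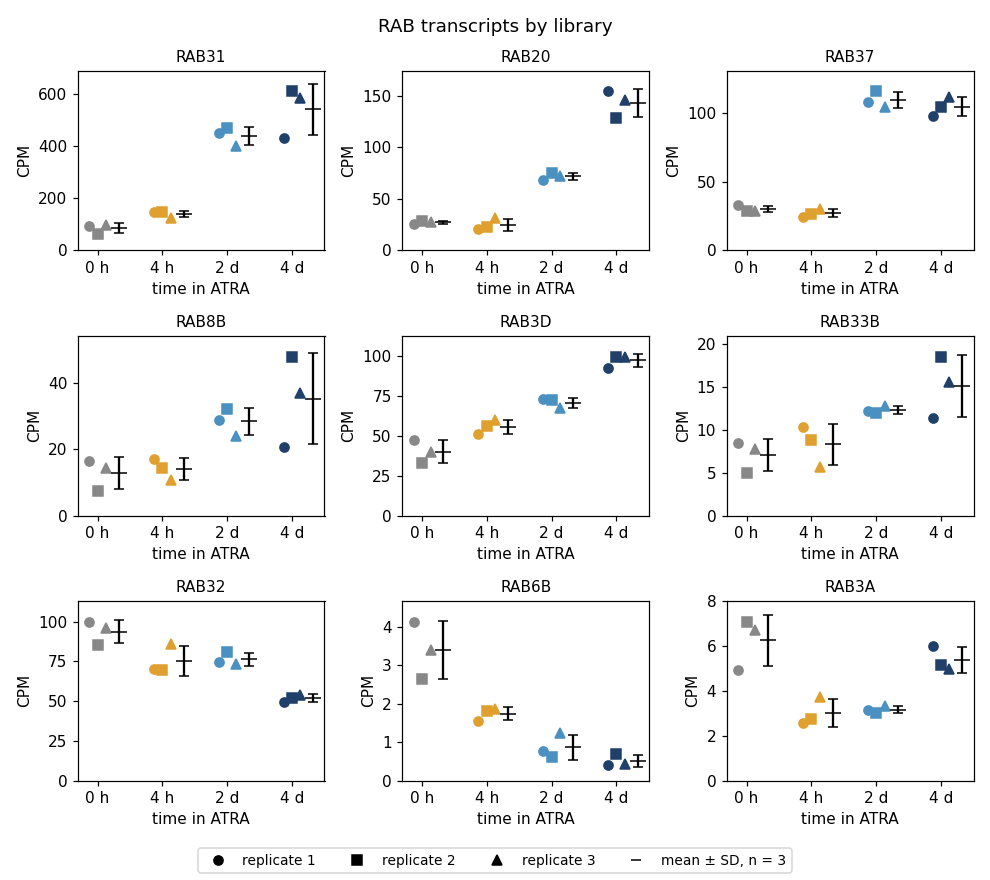
Level of 9 RAB members in each library (y axis, CPM from 0) by time in ATRA (x axis), with a marker shape per replicate number and the mean ± SD (n = 3) to the right of the points. RAB31, RAB20, RAB37 and RAB3D are higher in all libraries of 2 d and 4 d than in any of 0 h, and RAB6B is lower.

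Among the members of late endosomes, lysosomes and related organelles, RAB32 fell at 4 d and RAB24 and RAB29 rose. RAB32, which builds lysosome-related organelles such as melanosomes, had 100, 85.5 and 95.7 CPM at 0 h, 70.1, 69.6 and 86.1 CPM at 4 h, 74.5, 81.0 and 73.4 CPM at 2 d and 49.3, 52.1 and 54.1 CPM at 4 d. The 4 d libraries lay below all others. The log2 fold change of RAB32 was -0.86 ± 0.14 at 4 d against 0 h (adjusted p = 0.000151, edgeR) and -0.56 ± 0.14 at 4 d against 2 d (adjusted p = 0.00995). RAB38, which shares the melanosome role with RAB32, had 39 reads over the 12 libraries and was not tested.

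RAB29, which recruits the kinase LRRK2 to Golgi and lysosomes, had 14.1, 18.4 and 17.9 CPM at 4 d, against 9.93, 7.64 and 10.2 CPM at 0 h. The groups did not overlap, and RAB29 rose by 0.86 ± 0.20 (edgeR adjusted p = 0.00251). RAB24, an atypical member linked to autophagy, had 61.5, 113 and 51.8 CPM at 0 h, 39.2, 42 and 57.3 CPM at 4 h, 51.0, 54.1 and 60.9 CPM at 2 d and 218, 96.5 and 103 CPM at 4 d. The libraries of 4 d and 0 h overlapped, and both high values lay in GC-tilted libraries. The log2 fold change of RAB24 at 4 d against 0 h was 0.88 ± 0.33 (adjusted p = 0.0333, edgeR). The call was lost without 4 d replicate 1 (0.40, adjusted p = 0.226) or 0 h replicate 1 or 3 (adjusted p = 0.112 and 0.129) and in a fit to the 6 libraries compared (0.117), and alternatives gave 1.45e-05 to 0.226. Against 2 d it rose by 1.33 ± 0.33 (edgeR adjusted p = 0.0102), and by 0.85 without 4 d replicate 1.

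RAB7A, which drives the maturation of late endosomes and their fusion with lysosomes, had 206, 272 and 274 CPM at 4 d, against 318, 242 and 319 CPM at 0 h (-0.23 ± 0.16, edgeR adjusted p = 0.256). RAB9A, which returns cargo from late endosomes to the Golgi, had 12.5, 13.2 and 13 CPM at 4 d, against 14, 7.10 and 12.7 CPM at 0 h. The groups overlapped for both, and neither was called, RAB9A being called at 4 d with GC and length offsets alone (0.46, adjusted p = 0.0207). RAB7A was called lower at 2 d against 0 h without 0 h replicate 2 and without the 3 GC-tilted libraries. The same held when 4 h replicate 1 was left out in place of 4 h replicate 3, while -0.29 with all libraries was not called.

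Among the recycling members, RAB14 alone was called at 4 d and RAB14 and RAB35 at 2 d. RAB14, which serves traffic between the trans-Golgi network and endosomes, had 64.5, 93.4 and 89.8 CPM at 4 d, against 63.6, 35.2 and 60.2 CPM at 0 h. It rose by 0.64 ± 0.22 at 4 d (edgeR adjusted p = 0.021), a call lost without 0 h replicate 2 (0.42), 4 d replicate 2 (0.54) or 4 d replicate 3 (0.58), with adjusted p-values of 0.0632, 0.0737 and 0.0709, and in the 6-library fit (0.065), with a range over alternatives of 0.000221 to 0.0737. At 2 d it was called by 0.59 ± 0.22 (adjusted p = 0.0475, edgeR). With 1 library left out at a time, this call remained only without 0 h replicate 1, 4 h replicate 3 or 4 d replicate 1. RAB35, a member of fast recycling and cytokinesis, had 101, 108 and 88.9 CPM at 2 d, against 73.1, 43.8 and 75.3 CPM at 0 h. It rose by 0.63 ± 0.21 (edgeR adjusted p = 0.0343), a call lost without 0 h replicate 2 (0.42) or 2 d replicate 1 or 2 (0.0809 to 0.0996) and with GC and length offsets (0.62, adjusted p = 0.0632), the range over alternatives being 0.00443 to 0.0996. At 4 d RAB35 had 74.3, 99.9 and 101 CPM and missed the threshold at 0.52 ± 0.21 (edgeR adjusted p = 0.0513). It passed there with RLE factors (adjusted p = 0.0398), library totals (0.0439), DESeq2 (0.0292), limma-voom (0.0434), no filter (0.0412) and without the GC-tilted libraries (0.00357), and alternatives ran from 0.00357 to 0.196.

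RAB11A and RAB11B, which define the recycling endosome, and RAB4A, a member of the fast return route, were not called at any time with all libraries. RAB11A had 58.3, 79.0 and 76.1 CPM at 4 d, against 76.9, 56.2 and 63.0 CPM at 0 h. RAB11B had 114, 332 and 150 CPM at 0 h, 102, 126 and 225 CPM at 4 h, 203, 182 and 206 CPM at 2 d and 376, 166 and 202 CPM at 4 d, and its highest values were those of GC-tilted libraries. RAB11B differed by -0.01 at 2 d against 0 h, and without the 3 GC-tilted libraries by 0.57 (edgeR adjusted p = 0.00179, range over alternatives 0.00179 to 1). Without these libraries RAB11B was also called higher at 4 d against 0 h and at 2 d against 4 h. The 4 d call was made as well without 0 h replicate 2 alone. RAB12 and RAB15, also recycling members, were not called.

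Among the endoplasmic reticulum and Golgi members, RAB33B, RAB43 and RAB18 rose at 4 d and RAB6B fell. RAB6B, the form of the Golgi regulator RAB6 that is known from brain, had 4.14, 2.64 and 3.41 CPM at 0 h, 1.56, 1.81 and 1.87 CPM at 4 h, 0.771, 0.605 and 1.23 CPM at 2 d and 0.416, 0.694 and 0.436 CPM at 4 d. All libraries after 0 h lay below those of 0 h. The log2 fold change of RAB6B was -2.70 ± 0.36 at 4 d against 0 h (adjusted p = 3.14e-05, edgeR) and -2.00 ± 0.34 at 2 d against 0 h (adjusted p = 0.00054), and -0.95 at 4 h was not called (adjusted p = 0.0825). RAB6B was called lower at 4 h with GC and length offsets and without the 3 GC-tilted libraries. RAB6A, the broadly expressed form, had 40.1, 66.9 and 61.5 CPM at 4 d, against 57.5, 30.7 and 62.3 CPM at 0 h, and was not called. RAB6B thus made up 0.70% to 1.03% of the reads of the pair at 4 d, against 5.19% to 7.92% at 0 h.

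RAB33B, which acts at the Golgi and in autophagosome formation, had 11.3, 18.5 and 15.5 CPM at 4 d, against 8.46, 5.00 and 7.70 CPM at 0 h. The groups did not overlap, and RAB33B rose by 1.10 ± 0.26 at 4 d (edgeR adjusted p = 0.00253) and by 0.80 ± 0.26 at 2 d (adjusted p = 0.0285). The 2 d call was lost without 0 h replicate 2 (0.60) or any 1 of the 2 d libraries (0.067 to 0.1, range over alternatives 0.00631 to 0.1). RAB18, known from lipid droplets, had 33, 34.6 and 36.1 CPM at 4 d, against 27.9, 17.8 and 23.5 CPM at 0 h, and rose by 0.58 ± 0.17 (edgeR adjusted p = 0.00834). RAB43, a Golgi member, had 4.47, 5.55 and 4.36 CPM at 4 d, against 2.30, 2.64 and 3.02 CPM at 0 h, and rose by 0.85 ± 0.26 (edgeR adjusted p = 0.0131). That call was lost without 0 h replicate 1 (0.75) or 4 d replicate 2 (0.72) and with GC and length offsets (0.58), with adjusted p-values of 0.0507, 0.0625 and 0.0983 and a range over alternatives of 0.00901 to 0.0983. In GENCODE (GRCh38), 84.5% of the exon bases of RAB43 are shared with the read-through gene ISY1-RAB43, so its count may hold only part of its reads. RAB1A, the other early secretory member beside RAB1B, had 78.0, 114 and 111 CPM at 4 d, against 92.7, 42.2 and 76.3 CPM at 0 h (0.52 ± 0.24, edgeR adjusted p = 0.0759). It was called with GC and length offsets (0.70, adjusted p = 0.00139), without the GC-tilted libraries (0.41), without 0 h replicate 1 (0.76) or 4 d replicate 1 (0.67) and without a filter (0.51), over a range of 0.00139 to 0.228. RAB1B had 294, 267 and 292 CPM at 4 d, against 278, 327 and 295 CPM at 0 h (-0.08 ± 0.19). RAB2A, RAB2B and RAB33A, further Golgi members, were not called either.

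The last 5 tested members act in cilia, in ubiquitin ligases or are little characterized, and RAB28 rose and RAB42 and RAB23 fell at 4 d. RAB28, a member of cilia and photoreceptors, had 21.1, 21.1 and 24.8 CPM at 4 d, against 15.4, 10.9 and 16.4 CPM at 0 h, and rose by 0.65 ± 0.17 (edgeR adjusted p = 0.00472). RAB42 had 0.104, 0.397 and 0.174 CPM at 4 d, against 1.47, 0.728 and 1.46 CPM at 0 h, and fell by 2.38 ± 0.52 (edgeR adjusted p = 0.00157). RAB23, an inhibitor of hedgehog signalling, had 3.22, 2.88 and 3.31 CPM at 4 d, against 4.78, 4.82 and 5.85 CPM at 0 h. It fell by 0.71 ± 0.22 (edgeR adjusted p = 0.0125), a call lost without 0 h replicate 3 (-0.62, adjusted p = 0.0506) or without a filter on low counts (adjusted p = 0.0573), the range over alternatives being 0.00209 to 0.0573. In GENCODE, 57.7% of the exon bases of RAB23 lie opposite BAG2, and the strand setting of the counting is not given in the sources used here.

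RAB40B and RAB40C carry a SOCS box that recruits a ubiquitin ligase. RAB40B had 2.76, 3.82 and 3.02 CPM at 0 h, 1.28, 1.45 and 1.36 CPM at 4 h, 2.23, 1.51 and 1.60 CPM at 2 d and 5.40, 2.97 and 3.22 CPM at 4 d. It dipped at both middle times in every library and overlapped with 0 h at 4 d. RAB40B fell by 1.22 ± 0.31 at 4 h (edgeR adjusted p = 0.0324), a call lost without 0 h replicate 2 or 3, 4 h replicate 1 or 2, or 2 d replicate 2 (0.0508 to 0.123, range over alternatives 0.0137 to 0.123). At 2 d it fell by 0.84 ± 0.30 (adjusted p = 0.044, edgeR). With 1 library left out at a time, that call remained only without 4 h replicate 3, 2 d replicate 1 or 4 d replicate 1 or 2. It was also lost with DESeq2 (adjusted p = 0.0531) and without the GC-tilted libraries (0.0617). RAB40C had 263, 107 and 129 CPM at 4 d, against 100, 254 and 112 CPM at 0 h, with its highest values in GC-tilted libraries, and was not called. It was called lower at 4 h against 0 h without the GC-tilted libraries or without a filter on low counts. Calls were also gained at 2 d against 4 h without these libraries and at 4 d against 2 d without a filter.

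Between treated times, 6 members were called at 2 d against 4 h (5 higher and 1 lower, 13.6%), beside 34.5% of all genes (16.5% higher and 18.0% lower). All 6 had a fold of at least 2, as had 9.49% (higher) and 7.39% (lower) of all genes. RAB37 rose by 2.02, RAB31 by 1.65, RAB20 by 1.54, RAB43 by 1.12 and RAB8B by 1.02 on the log2 scale, and RAB6B fell by 1.05. The RAB37, RAB31 and RAB20 calls were made under every alternative that tested them. RAB43 lost its call with GC and length offsets (0.76, edgeR adjusted p = 0.0582, range over alternatives 0.00242 to 0.0582). RAB8B lost it without 4 h replicate 2 or 3 or 2 d replicate 1 or 2 (0.059 to 0.0941, range over alternatives 2.65e-05 to 0.0941). RAB6B lost it without the same pair of 4 h replicates or the same pair of 2 d replicates (0.0623 to 0.143, range over alternatives 0.0114 to 0.143). Without the 3 GC-tilted libraries 15 members were called higher and 2 lower, beside 52.5% of all genes.

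At 4 d against 2 d, 8 members were called (5 higher and 3 lower, 18.2%), beside 26.6% of all genes (13.1% higher and 13.5% lower). A fold of at least 2 was seen for 2 of the higher and 1 of the lower members, beside 6.74% and 4.86% of all genes. RAB24 rose by 1.33, RAB40B by 1.11, RAB20 by 0.99, RAB3A by 0.76 and RAB3D by 0.46, and RAB42 fell by 1.94, RAB23 by 0.69 and RAB32 by 0.56. RAB40B lost its call without 2 d replicate 2 or 3 or 4 d replicate 1 (0.0527 to 0.0778, edgeR, range over alternatives 0.0088 to 0.0778). RAB42 lost it without 2 d replicate 1 or 2 or 4 d replicate 1 or 3 (0.0562 to 0.072, range over alternatives 0.0123 to 0.072). RAB23 lost it without any 1 of the 6 libraries compared (0.0552 to 0.104, range over alternatives 0.0185 to 0.111). RAB31 was not called in this step (0.30, edgeR adjusted p = 0.281), but it was without the 3 GC-tilted libraries (0.45, adjusted p = 0.00263) and with GC and length offsets (0.35, adjusted p = 0.0343; range over alternatives 0.00263 to 0.549). Without these libraries 14 members were called higher and 4 lower, beside 43.3% of all genes.

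The 18 members called at 4 d had reached different parts of that log2 change at 2 d. RAB37 had reached 103.9%, RAB22A 98.7%, RAB14 92.2% and RAB31 88.8%, while RAB32 had reached 34.9%, RAB28 32.6%, RAB42 18.3% and RAB23 2.8%. RAB20 stood at 58.4%, RAB3D at 64.2% and RAB6B at 74.3%. These shares use the same 0 h libraries in both terms and were not tested.

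In all, 22 tested members were called in at least 1 of the 5 comparisons and 22 in none, beside 65.9% of all genes called in at least 1. Those in none include RAB1A, RAB1B, RAB2A, RAB2B, RAB5A, RAB5B, RAB5C, RAB6A, RAB7A, RAB8A, RAB10, RAB11A, RAB11B, RAB27A and RAB44, and their log2 fold changes at 4 d against 0 h ran from -0.32 to 0.60. A member that missed the threshold is not shown to have kept its level: without the 3 GC-tilted libraries the F-test over times called 33 of 44 members, beside 78.3% of all genes.

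The other genes of the RAB cycle were taken from 4 lists. Of the 10 genes for GDI, escort and prenylation, which carry RAB proteins and attach their lipid anchor, 2 rose and 3 fell at 4 d against 0 h, with a median log2 fold change of 0.07, beside calls for 57.8% of all genes. ARL6IP5, a prenylated RAB acceptor relative, rose by 1.00 ± 0.16 (edgeR adjusted p = 0.000122). GDI2 had 82.0, 86.3 and 92.9 CPM at 4 d, against 161, 99.6 and 130 CPM at 0 h (-0.58 ± 0.17), the escort protein gene CHML fell by 1.67 ± 0.29, and the transferase subunit gene RABGGTB fell by 0.38 ± 0.15. The RABGGTB call was lost without 0 h replicates 1 or 2, 4 h replicate 2, 2 d replicate 2 or 4 d replicates 2 or 3 (0.0558 to 0.139) and with GC and length offsets (-0.10, edgeR adjusted p = 0.621, range over alternatives 0.0045 to 0.621).

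Of 46 tested GEF genes, which load RAB proteins with GTP, 22 rose and 8 fell (65.2%, median 0.48), beside 57.8% of all genes. ALS2CL, a relative of the RAB5 exchange factor alsin, had 1.93, 2.09 and 1.75 CPM at 0 h, 2.20, 0.653 and 1.02 CPM at 4 h, 71.7, 88.7 and 95.4 CPM at 2 d and 1510, 922 and 1020 CPM at 4 d. It rose by 9.21 ± 0.39 at 4 d against 0 h (edgeR adjusted p = 1.2e-09). DENND2D rose by 3.17 ± 0.18 and C9orf72, part of an autophagy complex with exchange activity, by 2.77 ± 0.25. ANKRD27, a RAB21 exchange factor that also binds RAB32, fell by 1.72 ± 0.14, MON1A of the RAB7 exchange complex by 1.55 ± 0.22 and DENND5B by 1.44 ± 0.41.

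Of 36 tested GAP genes, which make RAB proteins hydrolyse GTP, 9 rose and 3 fell (33.3%, median 0.26), beside 57.8% of all genes (28.1% higher and 29.7% lower). RABGAP1L had 46.0, 49.9 and 53.4 CPM at 4 d, against 12.8, 9.82 and 13.7 CPM at 0 h (2.04 ± 0.18, edgeR adjusted p = 5.76e-07), and TBC1D8 rose by 1.05 ± 0.15. SGSM2, a GAP for RAB32 and RAB38, had 355, 155 and 175 CPM at 4 d, against 62.2, 165 and 60.0 CPM at 0 h (1.25 ± 0.38). The SGSM2 call was lost without 4 d replicate 1 (0.78, edgeR adjusted p = 0.071) or 0 h replicate 1 or 3 (1.02 and 1.00, adjusted p = 0.0565 and 0.0554), with a range over alternatives of 2.4e-08 to 0.071. TBC1D4, the GAP for RAB10 in insulin-responsive cells, fell by 2.02 ± 0.27, TBC1D24 by 1.16 ± 0.15 and TBC1D31 by 1.02 ± 0.19.

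Of 48 tested effector genes, 18 rose and 7 fell (52.1%, median 0.18), beside the same 57.8% of all genes. LRRK2, the kinase that phosphorylates RAB8A, RAB10 and other members, had 16.7, 36.8 and 26.9 CPM at 4 d, against 5.06, 2.18 and 3.99 CPM at 0 h (2.84 ± 0.39, edgeR adjusted p = 3.68e-05). RAB11FIP4, an effector of RAB11, had 77.9, 78.5 and 81.1 CPM at 4 d, against 8.92, 12.2 and 13 CPM at 0 h (2.80 ± 0.18), and SYTL3, which binds RAB27, rose by 2.11 ± 0.51. SYTL1, a RAB27A effector of granule release in neutrophils, had 225, 117 and 134 CPM at 4 d, against 286, 884 and 319 CPM at 0 h. It fell by 1.65 ± 0.42 (edgeR adjusted p = 0.00428), and by 0.93 without 0 h replicate 2. RABEPK, which binds RAB9, fell by 1.52 ± 0.18, and MICALL2, which binds RAB8 and RAB13, by 1.43 ± 0.38, or by 0.76 without 0 h replicate 2.

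The 17 members below the filter on low counts held 0 to 53 reads over the 12 libraries, and at most 14 in any library. They are RAB3B, RAB4B, RAB6C, RAB9B, RAB13, RAB17, RAB19, RAB25, RAB27B, RAB30, RAB34, RAB36, RAB38, RAB39A, RAB39B, RAB40A and RAB41. RAB30, a Golgi member, was the highest with 53 reads. RAB4B and RAB9B had no read, which allows up to 0.0225 CPM (3 of 133360628 gene reads, counting error only). In GENCODE, 73.3% of the exon bases of RAB4B are shared with its read-through genes MIA-RAB4B and RAB4B-EGLN2, so its 0 may come from reads counted as ambiguous or under those names and is no measure of the gene. In 4 h replicate 1, where the most genes had a read, there were 58 reads of these members, against 14 to 25 in the others, among them all 7 of RAB3B and 5 of 9 of RAB34.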

How the data were processed

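RNA-seq was analysed in 12 libraries, 3 each at 0 h, 4 h, 2 d and 4 d of ATRA. The values are raw counts per gene symbol, deposited by the authors as 1 table per library. Per the submitters' processing notes, FastQC, Trim Galore 0.6.7, HISAT2 2.1.0 and HTSeq 1.99.2 and the build hg19 were used. No source used here gives the annotation, the strand setting or the kit. HTSeq counts leave out reads that fit more than 1 gene, which lowers counts of genes with overlapping exons.

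Genes were filtered with edgeR's filterByExpr, which kept 12671 genes with 99.9% of gene reads. TMM factors, 0.864 to 1.098, and a quasi-likelihood fit over all 12 libraries (8 residual degrees of freedom) were computed with edgeR 4.0.16 in R 4.3.3, with Benjamini-Hochberg adjustment over all tested genes. The SE of a log2 fold change is its size divided by the square root of F. Exon lengths, GC content and overlaps came from GENCODE v29 (GRCh38) by symbol, and all 61 members matched. DESeq2 1.42.0 and limma-voom (limma 3.58.1) were alternatives, beside RLE factors, library totals, no filter, the 6 libraries compared, a replicate block, stricter thresholds, and libraries left out. GC and length offsets and the removal of a second set of 3 libraries were added after seeing the data.

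Named with values were, for each time against 0 h, the up to 8 called members with the largest change in either direction, up to 4 for each later step, and a list of members of granule, endosome and Golgi traffic, called or not. Of each list of RAB regulators and effectors, up to 3 called genes in either direction were named, and 1 result is not reported here. The members and lists were chosen with earlier results of these data known. No p-value was computed over the members alone.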

Additional observations from a re-analysis of the deposited data

How the results depend on the processing

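Of 243 gene values, 240 kept their side of the threshold with RLE factors, 241 with limma-voom and 236 with DESeq2. Without the 3 GC-tilted libraries 203 did (37 newly called, 1 lost and 2 with the other sign and a call in either fit). With GC and length offsets 218 did, and 226 without 2 d replicate 2. Without the second set of 3 libraries (the same, but with 4 h replicate 1 in place of 4 h replicate 3) 222 did. A value that changed sign but was called in neither fit counted as kept. Leaving out 1 library at a time gave 0 to 1 members higher at 4 h against 0 h, 4 to 10 at 2 d and 12 to 16 at 4 d, and 4 to 8 at 2 d against 4 h and 2 to 6 at 4 d against 2 d. It gave 0 to 2, 2 to 4 and 3 to 5 members lower at 4 h, 2 d and 4 d against 0 h, and 0 to 1 and 1 to 3 in the later steps. The F-test then called 16 to 21 members, beside 55.8% to 64.8% of all genes. Of all genes, 1.97% to 11.7%, 24.2% to 38.4% and 50.4% to 59.0% were then called at 4 h, 2 d and 4 d against 0 h. In the later steps 25.3% to 39.4% and 16.3% to 32.7% were. At 4 d against 0 h, leaving out 1 library gave 4 to 11 GAP genes higher and 3 to 4 lower. It gave 2 to 3 GDI, escort and prenylation genes in each direction. It gave 19 to 23 GEF genes higher and 6 to 9 lower, and 12 to 19 effector genes higher and 5 to 8 lower.

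At 4 h against 0 h, 1 member was higher, and 0 were with library totals, the 6-library fit, the block, p under 0.01, the 2-fold limit or the second set of 3 libraries left out, but 2 with DESeq2 or GC and length offsets. There 2 were lower, and 4 without a filter or with offsets, 0 with the 6-library fit, p under 0.01 or the second set left out, 1 with the block and 9 without the 3 GC-tilted libraries. At 2 d against 0 h, p under 0.01 and the 2-fold limit each left 4 of 9 higher and 2 of 4 lower. Of all genes they left 21.3% and 16.7% called. At 4 d against 0 h the 2-fold limit left 7 of 14 higher and 2 of 4 lower, beside 35.2% of all genes called. At 2 d against 4 h, 5 were higher, with 8 in the 6-library fit or with offsets, 15 without the GC-tilted libraries and 9 without the second set, and 1 was lower, with 0 for library totals, no filter, the block or p under 0.01 and 2 without the GC-tilted libraries. At 4 d against 2 d, 5 were higher, with 3 under the block, 1 at p under 0.01, 2 at 2-fold, 14 without the GC-tilted libraries, 9 with offsets and 9 without the second set, and 3 were lower, with 1 at either stricter threshold. The F-test called 33 members, against 19, without the GC-tilted libraries, beside 78.3% against 63.2% of all genes. Shares of all genes called moved as well. At 4 h against 0 h they were 2.18% in the 6-library fit, 1.9% at p under 0.01 and 10.6% with DESeq2. Without the GC-tilted libraries they were 24.9% at 4 h against 0 h, 52.5% at 2 d against 4 h and 43.3% at 4 d against 2 d. Without the second set they were 5.32%, 47.2% and 35.7% in the same order. The cause of these shifts was not tested.

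GAP genes higher numbered 5 of 9 in the 6-library fit or at 2-fold and 2 at p under 0.01, and 6 were lower, against 3, with offsets. The 2-fold limit left 1 GDI, escort and prenylation gene in each direction, 12 GEF genes higher and 4 lower, and 9 effector genes higher and 3 lower. Effector genes higher numbered 11 at p under 0.01, and 11 were lower without the GC-tilted libraries and 15 with offsets. Of all genes at 4 d against 0 h, 51.7% were called in the 6-library fit, 35.2% at 2-fold and 44.7% at p under 0.01. The share was 64.7% with offsets and 68.1% without the GC-tilted libraries. Without the GC-tilted libraries RAB44 at 2 d against 0 h turned to 0.30 (edgeR adjusted p = 0.0349; -0.07 with all libraries) and RAB11B to 0.57, or 0.58 without the second set (adjusted p = 0.0262; -0.01 with all). Without a filter the median of all genes moved to 0.27 at 4 h against 0 h and to -0.38 at 2 d against 4 h. Deviations of same-numbered replicates had correlations from -0.66 to 0.46. The GC-tilted libraries carry different replicate numbers, which enters these correlations. They therefore cannot show whether the numbers pair the samples. With the replicate block, 0, 6 and 13 members were higher and 1, 3 and 4 lower at 4 h, 2 d and 4 d against 0 h. In the later steps 5 and 3 were higher and 0 and 2 lower, and the F-test called 17. Of all genes, the block called 3.01%, 28.5% and 52.9% at 4 h, 2 d and 4 d against 0 h. It called 28.6% and 20.0% in the later steps and 55.5% in the F-test. Among others, the block ended the calls of RAB24 at 4 d (adjusted p = 0.0653) and RAB35 at 2 d (0.0545). With 3 libraries per time, members below about 1 CPM, such as RAB26, RAB42 and RAB15, rest on few reads.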
